A study of Mus musculus with 6 samples.

Results

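The antioxidant and NRF2 target enzymes examined here are 10 genes, Sod1, Sod2, Gpx1, Gpx4, Prdx1, Txn1, Txnrd1, Hmox1, Nqo1 and Gclm, out of 21400 genes on the probe panel. They were taken by name, and every probe row of the deposited count table that carries one of these symbols was used, 23 of 30146 rows. Islets of 3 male wild-type C57Bl/6 mice were cultured for 48 h with 10 uM cisplatin or with its saline vehicle (0.9%), and by the labels' identifiers each mouse gave islets to both treatments. This gave 3 cisplatin and 3 vehicle libraries, numbered 1 to 3 by mouse. The age of the mice is not in the labels. RNA was measured by TempO-Seq, in which neighbouring short probes hybridised to a transcript are joined by a ligase and the joined product is sequenced, so each row reads out 1 stretch of a transcript. The islets were whole, with endocrine, vascular and immune cells together, and in such bulk samples fewer cells of a type and less RNA per cell cannot be told apart. Cisplatin is a chemotherapy drug whose platinum binds DNA and also thiols such as glutathione.

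Superoxide, a by-product of respiration, is turned into hydrogen peroxide by superoxide dismutases, and the peroxide is then reduced by glutathione peroxidases and by peroxiredoxins, which draw on glutathione and thioredoxin. The transcription factor NRF2, encoded by Nfe2l2, is held low by its adaptor KEAP1. When oxidants or electrophiles modify KEAP1, NRF2 pairs with a small MAF protein on antioxidant response elements and raises genes such as Nqo1, Gclm, Txnrd1, Prdx1 and Hmox1, while BACH1 represses Hmox1 at the same elements. Rodent beta cells are known for low levels of catalase and glutathione peroxidase compared with other tissues.

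The 250 bases before the annotated starts of these genes, from RefSeq (GRCm38.p6), were searched for the core of the antioxidant response element, TGACNNNGC on either strand. Promoters were held for 9 of the 10 genes, as 14 windows because Gpx4 and Txnrd1 have several starts, and none was held for Hmox1. A match was found in 4 windows, those of Sod1, Prdx1, Gclm and 1 of 3 Txnrd1 starts, against 10.2% of 32851 windows of the same length over all genes. All 4 matches lie on the strand opposite to the gene and so read GCNNNGTCA below. They are shown because Sod1 was called higher with cisplatin while Prdx1, Txnrd1 and Gclm, with the same core in a window, were not. Each sequence runs 5′ to 3′ on the strand of the gene and ends just before the start, with the match in capitals. The windows are chr16:90220512-90220761 (plus strand) for Sod1, chr4:116685349-116685598 (plus strand) for Prdx1, chr10:82858956-82859205 (plus strand) for Txnrd1 and chr3:122245307-122245556 (plus strand) for Gclm.
Sod1: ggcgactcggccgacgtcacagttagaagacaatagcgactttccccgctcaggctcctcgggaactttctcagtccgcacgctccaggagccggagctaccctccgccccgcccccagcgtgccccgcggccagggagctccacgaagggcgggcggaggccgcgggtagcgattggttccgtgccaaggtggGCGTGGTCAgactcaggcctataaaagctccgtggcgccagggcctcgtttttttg
Prdx1: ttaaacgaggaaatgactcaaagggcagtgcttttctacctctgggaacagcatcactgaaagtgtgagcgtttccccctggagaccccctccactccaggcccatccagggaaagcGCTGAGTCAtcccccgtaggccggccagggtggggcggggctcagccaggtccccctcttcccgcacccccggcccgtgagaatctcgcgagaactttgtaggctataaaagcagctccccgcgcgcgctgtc
Txnrd1: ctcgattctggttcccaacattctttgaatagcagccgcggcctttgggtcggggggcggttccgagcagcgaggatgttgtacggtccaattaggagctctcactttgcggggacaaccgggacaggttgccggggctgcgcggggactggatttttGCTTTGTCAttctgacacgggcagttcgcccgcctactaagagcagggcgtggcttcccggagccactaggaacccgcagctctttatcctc
Gclm: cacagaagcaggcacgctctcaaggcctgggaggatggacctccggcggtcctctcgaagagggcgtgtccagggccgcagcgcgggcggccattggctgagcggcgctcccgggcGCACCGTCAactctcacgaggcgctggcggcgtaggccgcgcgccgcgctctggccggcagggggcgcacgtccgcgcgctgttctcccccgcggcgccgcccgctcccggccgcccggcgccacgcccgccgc
The match begins 56 bases before the start in Sod1, 133 in Prdx1, 92 in Txnrd1 and 134 in Gclm. A match is a string of letters and not evidence of binding, and the single windows of Sod2, Gpx1, Txn1 and Nqo1 and the 4 windows of Gpx4 held none. Bases further upstream were not searched, so a window without a match does not show that the gene lacks the element.

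Library totals were 1116916 to 1366829 counts with cisplatin and 1470227 to 2272276 with vehicle, and the 23 rows took 0.106% to 0.186% of cisplatin counts and 0.101% to 0.134% of vehicle counts. Mitochondrially encoded rows took 28.6% of cisplatin library 3, against 0.188% to 3.11% of the other libraries. Summed islet endocrine markers stood at 82100 to 163000 CPM (counts scaled to library size by TMM factors) with cisplatin and 127000 to 242000 with vehicle, so the islet label held in every library. By the most abundant probe of each, 5 of these 10 markers were called lower and 0 higher, while a second Ins2 probe (29628), also in the sums, was called higher (1.55, edgeR adjusted p = 0.0250). With cisplatin, acinar markers summed to 8.58 to 30.4 CPM, duct markers to 1620 to 2660, endothelial markers to 103 to 145 and stromal markers to 94.7 to 137. With vehicle, acinar markers summed to 5.68 to 14.6 CPM, duct markers to 1300 to 1720, endothelial markers to 75.8 to 121 and stromal markers to 85.2 to 332. Members of these lists moved apart. Of 3 tested endothelial genes Kdr (-3.35) and Eng (-2.54) were called lower and Esam higher, at 2.01 and 1.19 on its 2 tested probes, on the log2 scale. Of 5 tested stromal genes Rgs5 (-4.74) was called lower and 0 higher, of 3 tested duct genes Krt18 (1.73) was called higher and 0 lower, and the 1 tested acinar gene was not called.

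Of the 23 rows 18 passed the filter on low counts, at least 1 for each gene, and the other 5 did not. Called here means an adjusted p under 0.05 in edgeR's quasi-likelihood test across all 9381 tested rows. The most abundant probes of Sod1 and Hmox1 rose with cisplatin, each by more than 3-fold, and no row of the 10 genes was called lower. That is 2 of 18 rows called higher, where 11.1% of all tested rows were called higher, and 0 called lower, where 13.9% were. In either direction 25.0% of all tested rows were called, so the members' calls were no more frequent than those of the table. DESeq2 also called 0 rows lower and called 3 higher. At an unadjusted p under 0.05 in edgeR's test, 4 of the 18 rows were higher and 0 lower. The share of all tested rows at that threshold was not computed. In 3 of 18 rows every cisplatin library lay above every vehicle library, against 19.1% of all tested rows, and in 0 rows the reverse held, against 24.3%. The median log2 fold change was 0.33 over the 18 rows and -0.07 over all tested rows, with 15 of 18 rows above 0 against 47.5% of all rows. With library totals alone as the scale, 9 of 18 rows were above 0 and their median was -0.04, while the median of all rows was -0.54, and the calls stayed at 2 higher and 0 lower.

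**Figure D1:**
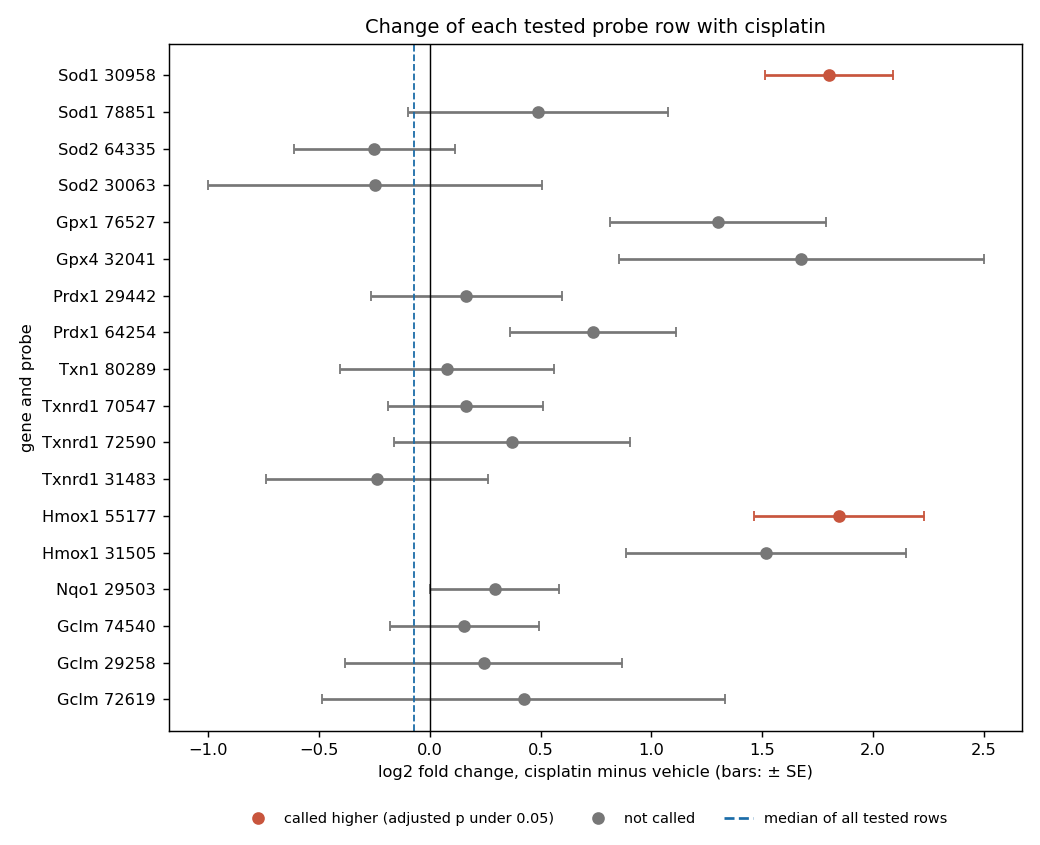
Log2 fold change (cisplatin minus vehicle) of each of the 18 tested probe rows, with bars of 1 SE. Red points are the 2 rows called higher, at 1.80 for Sod1 and 1.85 for Hmox1, grey points were not called, and the dashed line marks the median of all tested rows at -0.07.

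Sod1 encodes the copper and zinc superoxide dismutase of the cytosol. Its abundant probe (30958) stood at 703, 434 and 642 CPM in cisplatin libraries 1, 2 and 3, against 154, 206 and 152 CPM in vehicle libraries 1, 2 and 3. The groups did not overlap, and the cisplatin library was the higher in all 3 mice. The mean was 593 ± 141 CPM with cisplatin and 170 ± 30.7 CPM with vehicle (SD, n = 3 each), a log2 fold change of 1.80 ± 0.29 (SE; edgeR adjusted p = 0.000692) or 3.48-fold. Without any single library or mouse it stayed called, at 1.62 to 2.13. The raw counts behind it were 1886 with cisplatin and 1100 with vehicle, from shallower cisplatin libraries.

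The second Sod1 probe (78851) did not follow the first. It stood at 60.0, 33.3 and 15.01 CPM in the cisplatin libraries and at 19.0, 48.6 and 11.4 CPM in the vehicle libraries, so the groups overlapped. Its log2 fold change of 0.49 ± 0.59 was not called (edgeR adjusted p = 0.592). The 95% interval of -0.77 to 1.75 ended just below the 1.80 of the abundant probe, whose own interval was 1.18 to 2.42. The difference between the probes was not tested. Summed over both probes, Sod1 rose by 1.65 ± 0.29 on the log2 scale (edgeR adjusted p = 0.000772).

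Sod2, the manganese superoxide dismutase of mitochondria, did not pass the test with either probe. The abundant probe (64335) had 55.8, 164 and 138 CPM with cisplatin, against 136, 164 and 125 CPM with vehicle. Only cisplatin library 1 lay outside the vehicle range, at its low end. The log2 fold change was -0.25 ± 0.36 (95% interval -1.03 to 0.53, edgeR adjusted p = 0.666), and that of the second probe (30063), with a sum of 28 cisplatin and 69 vehicle counts, was -0.25 ± 0.75. Without cisplatin library 1 the abundant probe stood at 0.19.

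The ratio of Sod1 to Sod2 counts within a library does not depend on how libraries are scaled. On the log2 scale it was 3.42, 1.45 and 2.22 with cisplatin, against 0.24, 0.57 and 0.25 with vehicle. Every cisplatin library lay above every vehicle library. The means of 2.36 ± 0.99 with cisplatin and 0.35 ± 0.19 with vehicle (SD, n = 3 each) differed by 2.01, with a two-sided exact permutation p of 0.1, the smallest that 3 against 3 libraries allow, and 0.2 adjusted over the 4 ratios computed.

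**Figure D2:**
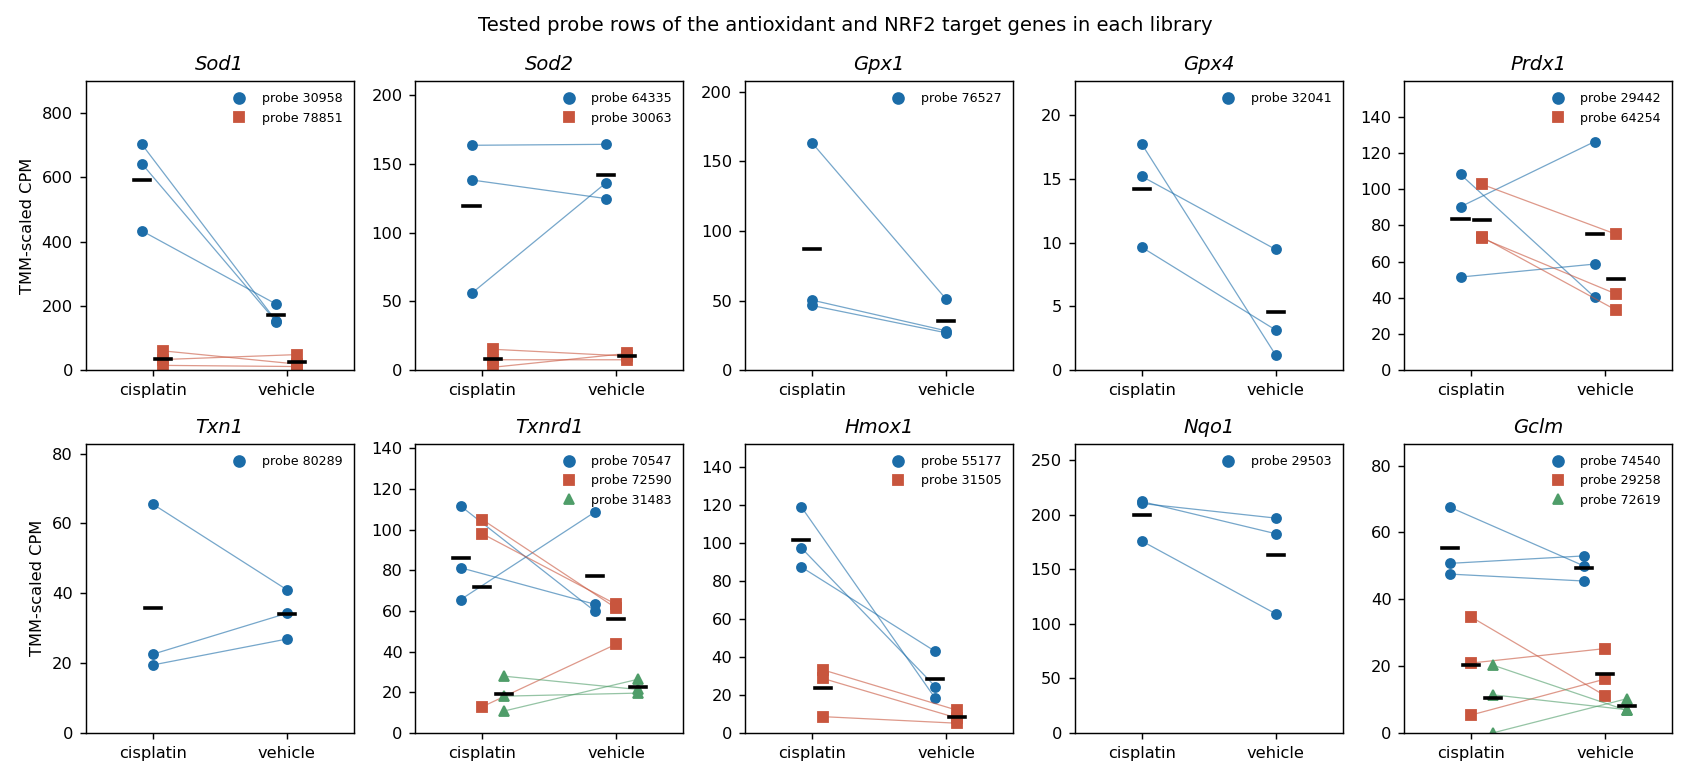
TMM-scaled CPM of each tested probe row in each library, with a panel per gene, cisplatin on the left and vehicle on the right. Points are libraries, thin lines join libraries of the same mouse, colours mark probes and black bars are group means. The Sod1 probe 30958 sits at 434 to 703 CPM with cisplatin and 152 to 206 CPM with vehicle, while most other genes overlap between groups.

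Hmox1 encodes haem oxygenase 1, a stress-inducible enzyme that breaks down haem to biliverdin, iron and carbon monoxide. Its abundant probe (55177) stood at 119, 87.5 and 97.6 CPM in the cisplatin libraries, against 18.2, 42.9 and 24.4 CPM in the vehicle libraries. The groups did not overlap, and the cisplatin library was the higher in every mouse, by 2.63, 1.01 and 1.95 on the log2 scale in mice 1, 2 and 3. The mean of 101 ± 16.2 CPM with cisplatin against 28.5 ± 12.9 CPM with vehicle (SD, n = 3 each) gave a log2 fold change of 1.85 ± 0.38 (edgeR adjusted p = 0.00359) or 3.60-fold. It stayed called without any single library, and without both libraries of mouse 3 it was 1.76 and not called (edgeR adjusted p = 0.0521).

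The second Hmox1 probe (31505) had 28.8, 33.3 and 8.58 CPM with cisplatin, against 7.91, 12.0 and 5.12 CPM with vehicle. Cisplatin library 3 lay within the vehicle range and the other cisplatin libraries above it. The log2 fold change of 1.52 ± 0.63 was not called (edgeR adjusted p = 0.0957), and without cisplatin library 3 it was 1.92 and called (edgeR adjusted p = 0.0340). Macrophages express Hmox1 strongly in many tissues, and 5 of the 8 tested macrophage and immune markers of 13 listed were called lower with 0 higher. Their summed level was 22.0 to 119 CPM with cisplatin and 198 to 359 CPM with vehicle. Adgre1 and H2-Ab1 had 0 counts in every cisplatin library, but also in vehicle library 2. Over the vehicle group Adgre1 summed to only 10 counts and the H2-Ab1 probes to 8 and 1. Untested Cd68 probe 76666 went the other way, with 3.38, 11.4 and 4.29 CPM with cisplatin against 2.37, 1.89 and 1.97 CPM with vehicle. Cd68 probe 30420, also untested, overlapped between groups. The part of macrophages in the Hmox1 result was not tested.

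Nqo1 encodes NAD(P)H quinone dehydrogenase 1, which reduces quinones and is a standard readout of NRF2. Its only probe (29503) stood at 176, 212 and 210 CPM with cisplatin, against 109, 183 and 197 CPM with vehicle. The ranges overlapped, although the cisplatin library was the higher in each mouse, by 0.68, 0.22 and 0.09 on the log2 scale. The log2 fold change was 0.29 ± 0.29 (95% interval -0.33 to 0.92, edgeR adjusted p = 0.507), so a rise of the size seen for Hmox1 lay outside its interval. With library totals alone it was -0.17. The log2 ratio of Hmox1 to Nqo1 counts was -0.25, -0.81 and -0.98 in cisplatin libraries, against -2.06, -1.73 and -2.73 in vehicle libraries. These did not overlap and differed by 1.49 between the means of -0.68 ± 0.38 with cisplatin and -2.17 ± 0.51 with vehicle (SD, n = 3 each; exact permutation p = 0.1, the smallest possible, adjusted p = 0.2).

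**Figure D3:**
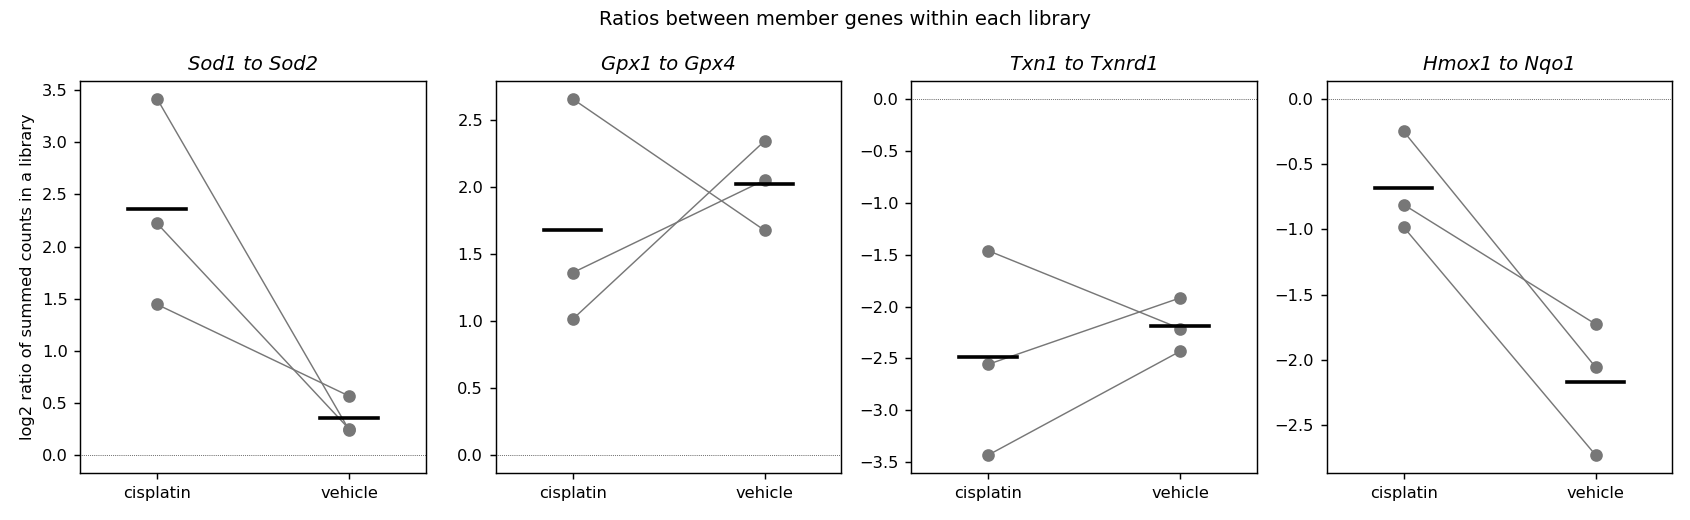
Log2 ratio of the summed counts of a pair of genes within each library, cisplatin left and vehicle right. Points are libraries, lines join libraries of a mouse and bars are means. Sod1 to Sod2 and Hmox1 to Nqo1 do not overlap between the groups, with mean differences of 2.01 and 1.49, while Gpx1 to Gpx4 and Txn1 to Txnrd1 do.

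The glutathione peroxidases are selenoenzymes. Gpx1 reduces soluble peroxides in the cytosol and mitochondria, and Gpx4 reduces lipid peroxides in membranes and so protects cells from ferroptosis. The abundant Gpx1 probe (76527) stood at 46.5, 164 and 50.4 CPM with cisplatin, against 26.9, 51.1 and 28.3 CPM with vehicle. Cisplatin library 2 was far above the other libraries, and the remaining cisplatin libraries lay within the vehicle range. The log2 fold change was 1.30 ± 0.49 (edgeR adjusted p = 0.0657, not called), and with the mouse as a block it was 1.11 and called (edgeR adjusted p = 0.0433). It was also called without cisplatin library 1 (1.68, edgeR adjusted p = 0.0122) or 3 (1.60, edgeR adjusted p = 0.0495), and it was 0.45 and not called without cisplatin library 2. The cisplatin library was the higher in all 3 mice.

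Gpx4 was poorly covered, and 1 of its 4 probes was tested. That probe (32041) had 21, 16 and 9 counts with cisplatin and 3, 15 and 8 counts with vehicle, or 17.8, 15.2 and 9.65 CPM with cisplatin against 1.19, 9.47 and 3.15 CPM with vehicle. The groups did not overlap on this scale, with the lowest cisplatin library just above the highest vehicle library, and the log2 fold change of 1.68 ± 0.82 was not called (edgeR adjusted p = 0.156, 95% interval -0.09 to 3.45). The 3 untested Gpx4 probes summed to 16, 5 and 5 counts over the cisplatin group, against 5, 18 and 6 over the vehicle group. Of the untested Gpx1 probe (30525) 1 read was counted in the cisplatin group and 0 in the vehicle group. The log2 ratio of Gpx1 to Gpx4 counts was 1.01, 2.66 and 1.36 with cisplatin, against 2.34, 1.68 and 2.05 with vehicle, with the groups overlapping. It averaged 1.68 ± 0.87 with cisplatin and 2.02 ± 0.33 with vehicle (SD, n = 3 each; exact permutation p = 0.5, adjusted p = 0.667).

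Gclm encodes the modifier subunit of glutamate-cysteine ligase, which makes the precursor of glutathione. Its abundant probe (74540) stood at 50.7, 47.5 and 67.6 CPM with cisplatin, against 53.0, 45.5 and 49.98 CPM with vehicle. Cisplatin library 3 lay above every vehicle library and the other cisplatin libraries within the vehicle range. The log2 fold change was 0.16 ± 0.34 (95% interval -0.57 to 0.88, edgeR adjusted p = 0.783), and the other probes, 29258 and 72619, were at 0.24 ± 0.62 and 0.42 ± 0.91. Both were lowest in cisplatin library 3, with 5 and 0 counts there. With library totals alone the abundant probe stood at -0.34.

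No probe of Prdx1, Txn1 or Txnrd1 was called. Prdx1 encodes a peroxiredoxin that reduces hydrogen peroxide with thioredoxin as its partner. Its probe 29442 had 108, 90.3 and 51.5 CPM with cisplatin, against 40.3, 126 and 58.6 CPM with vehicle. Its probe 64254 had 73.6, 103 and 72.9 CPM with cisplatin, against 33.2, 75.1 and 42.1 CPM with vehicle. For probe 64254 the cisplatin library was the higher in each mouse, and the ranges still overlapped. Their log2 fold changes were 0.17 ± 0.43 and 0.74 ± 0.37 (edgeR adjusted p = 0.824 and 0.169). The untested Prdx1 probe (69524) summed to 18 counts over the cisplatin group and 7 over the vehicle group.

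Txn1 encodes the cytosolic thioredoxin. Its probe (80289) stood at 19.5, 65.6 and 22.5 CPM with cisplatin, against 26.9, 41.0 and 34.2 CPM with vehicle. Cisplatin library 2 was the highest library, and the other cisplatin libraries lay below all vehicle libraries. The log2 fold change was 0.08 ± 0.48 (95% interval -0.96 to 1.12, edgeR adjusted p = 0.930), and without cisplatin library 2 it was -0.70.

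Txnrd1 encodes the selenium-containing reductase that recharges thioredoxin. Probe 70547 had 81.2, 65.6 and 112 CPM with cisplatin and 63.3, 109 and 59.8 CPM with vehicle. Probe 72590 had 105, 97.9 and 12.9 CPM with cisplatin and 61.3, 63.1 and 43.7 CPM with vehicle. Probe 31483 had 27.9, 18.1 and 10.7 CPM with cisplatin and 21.4, 19.6 and 26.4 CPM with vehicle. In cisplatin library 3 probe 70547 was at its highest and the other probes were at their lowest. The log2 fold changes were 0.16 ± 0.35, 0.37 ± 0.53 and -0.24 ± 0.50 (edgeR adjusted p = 0.786, 0.664 and 0.777). The log2 ratio of Txn1 to Txnrd1 counts was -3.43, -1.46 and -2.56 with cisplatin, against -2.43, -2.21 and -1.92 with vehicle, also overlapping. It averaged -2.48 ± 0.99 with cisplatin and -2.19 ± 0.26 with vehicle (SD, n = 3 each; exact permutation p = 0.7, adjusted p = 0.7).

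The rows most like the abundant Sod1 probe were sought by the root mean square difference of their centred log2 CPM over the 6 libraries, among 7886 rows of other genes at a mean of 10 CPM or more. They were Alyref, which codes for an mRNA export factor (0.092), Zwint, which codes for a kinetochore protein (0.11), and Tpi1, which codes for the glycolytic triosephosphate isomerase (0.12). For Hmox1 they were Tra2b, a splicing regulator gene (0.066), Gpn3 (0.091) and the zinc exporter gene Slc30a1 (0.11). Since these were picked for their likeness, their own changes are a description, and they ran at 1.93, 1.74, 1.76, 1.82, 1.83 and 1.72 on the log2 scale in that order.

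Genes that control NRF2 moved in both directions. The small MAF genes Mafk and Maff, whose products pair with NRF2 and with BACH1, rose, and Gsk3b and Btrc, a kinase and a ubiquitin ligase adaptor that mark NRF2 for degradation apart from KEAP1, fell. That is 2 higher and 2 lower among 10 tested genes of 14 listed, with each gene read by its most abundant probe, where 12.3% of 7186 genes were called higher and 13.8% lower, 26.1% in all. Mafk stood at 211, 307 and 269 CPM with cisplatin, against 57.3, 28.4 and 63.0 CPM with vehicle. The groups did not overlap, and its log2 fold change of 2.39 ± 0.34 (edgeR adjusted p = 0.000296) stayed called without any single library. Gsk3b had 10.99, 7.61 and 10.7 CPM with cisplatin, against 51.8, 56.2 and 40.1 CPM with vehicle (-2.33 ± 0.44, edgeR adjusted p = 0.00194), also called without any single library. Maff (2.36 ± 0.67, edgeR adjusted p = 0.0193) was not called without cisplatin library 3 (1.58), vehicle library 2 (1.94) or vehicle library 3 (2.47), with edgeR adjusted p of 0.0562 to 0.138, nor with library totals alone (1.75, edgeR adjusted p = 0.0588). Btrc (-1.90 ± 0.64, edgeR adjusted p = 0.0423) kept its call, among single-library omissions, only without cisplatin library 3, at -3.16, and lost it for each of the other libraries (edgeR adjusted p = 0.0605 to 0.177), as it did with RLE factors (-1.85) and without mitochondrially encoded rows (-1.82). The list had 2 calls without vehicle library 2 or 3.

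NRF2 itself could not be tested. Both Nfe2l2 probes fell under the count filter, with sums of 56 counts over the cisplatin group and 42 over the vehicle group. The larger had 24, 15 and 4 counts with cisplatin against 3, 3 and 7 with vehicle. Scaled, that was 20.3, 14.3 and 4.29 CPM with cisplatin against 1.19, 1.89 and 2.755 CPM with vehicle, without overlap, from very few counts. This probe summed to 43 cisplatin and 13 vehicle counts. The other Nfe2l2 probe therefore held fewer cisplatin than vehicle counts, from deeper vehicle libraries, and did not repeat the excess. Keap1 was at 36.4, 15.2 and 22.5 CPM with cisplatin and 28.5, 27.8 and 17.7 CPM with vehicle, a log2 fold change of 0.01 ± 0.48 (95% interval -1.01 to 1.04, edgeR adjusted p = 0.990), whose sign turned under library totals alone (-0.40). Bach1, at 0.82 ± 0.42 (edgeR adjusted p = 0.172), was called without cisplatin library 1 (1.24, edgeR adjusted p = 0.0308).

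In the thioredoxin and peroxiredoxin list 3 of 11 tested genes were called higher and 1 lower, against 12.3% and 13.8% of all tested genes. Without the filter on low counts 3 genes of the list were called higher and 3 lower. Of all 24661 rows then tested, 883 were called higher and 1439 lower. Prdx2, a cytosolic peroxiredoxin, rose with 1245, 1374 and 1201 CPM in the cisplatin libraries against 432, 826 and 622 CPM in the vehicle libraries (1.02 ± 0.29). Prdx3, its mitochondrial relative, rose to 73.8 ± 5.44 CPM with cisplatin, against 28.8 ± 5.73 CPM with vehicle (SD, n = 3 each), a log2 fold change of 1.35 ± 0.35. Txnip, an inhibitor of thioredoxin, rose with 476, 394 and 408 CPM with cisplatin against 229, 187 and 200 CPM with vehicle (1.05 ± 0.26). None of the 3 overlapped between groups, with edgeR adjusted p of 0.0212, 0.0115 and 0.00896 for Prdx2, Prdx3 and Txnip. None was called with library totals alone, at 0.58, 0.91 and 0.60 in that order. Prdx2 was not called without cisplatin library 2 or vehicle library 1 or 3 (edgeR adjusted p = 0.0571 to 0.142), Prdx3 without vehicle library 1 (edgeR adjusted p = 0.0752) and Txnip without vehicle library 3 (edgeR adjusted p = 0.0628). The sestrin gene Sesn3 fell (-1.59 ± 0.49, edgeR adjusted p = 0.0287) and was not called without cisplatin library 1 or 3 or vehicle library 1 or 2 (edgeR adjusted p = 0.0547 to 0.118). Without vehicle library 1 the list had 1 call. Srxn1, the sulfiredoxin gene and a known NRF2 target, was at 0.56 ± 0.47 (edgeR adjusted p = 0.418).

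Of 13 tested genes of glutathione synthesis and use, 0 were called in edgeR's test (33 were listed; 4 had an unadjusted p under 0.05, 2 in each direction), against 1 with DESeq2 and 2 with limma-voom, and 1 was called higher with the mouse as a block. The most abundant, Gstp1, a glutathione transferase, and Gsr, glutathione reductase, were at -0.57 ± 0.40 and 0.32 ± 0.26 (edgeR adjusted p = 0.331 and 0.395). The list had 2 calls without cisplatin library 2 or vehicle library 2 and 1 without cisplatin library 3. With library totals alone 3 genes were called, all lower. Gclc, the catalytic partner of Gclm, summed to 2 cisplatin and 20 vehicle counts over its 2 probes, and Slc7a11, the cystine importer gene, to 7 cisplatin and 23 vehicle counts, too few to be tested.

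Among genes of superoxide, peroxide, haem and iron handling 2 of 12 tested were called higher and 0 lower, where 12.3% of all tested genes were called higher and 13.8% lower. Ftl1, the ferritin light chain, stood at 623, 474 and 561 CPM with cisplatin, against 166, 147 and 213 CPM with vehicle, a log2 fold change of 1.65 ± 0.27 (edgeR adjusted p = 0.000791) that stayed called without any single library. Ncoa4, the receptor that delivers ferritin to lysosomes, rose by 1.79 ± 0.49 (edgeR adjusted p = 0.0162), with 46.1 CPM in cisplatin library 3 just under 48.6 CPM in vehicle library 2. It was not called without vehicle library 1 or 3 (edgeR adjusted p = 0.0840 and 0.0778), and the list then had 1 call. Cat, the catalase gene, was at 0.38 ± 0.32 (edgeR adjusted p = 0.427).

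Of 14 tested further NRF2 targets 1 was called higher and 1 lower, a share below the 26.1% of all tested genes called in either direction. Cbr1, a carbonyl reductase gene, rose by 1.13 ± 0.38 and Abcc1, an exporter of glutathione conjugates, fell by 1.63 ± 0.48 on the log2 scale (edgeR adjusted p = 0.0408 and 0.0250). Cbr1 was not called with the mouse as a block (edgeR adjusted p = 0.0613), nor when any library but cisplatin library 3 was left out (edgeR adjusted p = 0.0673 to 0.185). Its call was also lost with library totals alone (0.71, edgeR adjusted p = 0.285), with no filter (1.02) and with probes summed (0.86). Abcc1 was likewise called among single-library omissions only without cisplatin library 3 (edgeR adjusted p = 0.0572 to 0.119 for the rest), and was -1.09 without cisplatin library 1. The list had 0 calls without cisplatin library 1 or any single vehicle library and 1 without cisplatin library 2.

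Selenoproteins and the factors that make them gave 3 higher and 1 lower among 11 tested, where 12.3% of all tested genes were called higher and 13.8% lower. Selenop, which codes for a secreted selenium carrier, stood at 889, 668 and 548 CPM with cisplatin, against 111, 220 and 202 CPM with vehicle (1.98 ± 0.32, edgeR adjusted p = 0.00077). Selenow, a small redox protein gene, rose by 1.25 ± 0.27 (edgeR adjusted p = 0.00461), but was not called with library totals alone (0.79). Trnau1ap, a cofactor of the selenocysteine tRNA, rose by 1.99 ± 0.48 (edgeR adjusted p = 0.00862) and was not called without vehicle library 3 (edgeR adjusted p = 0.0600). The gene called lower was Eefsec, the selenocysteine elongation factor, named after its values were seen. It had 0, 1 and 0 counts with cisplatin and 21, 12 and 17 with vehicle (edgeR adjusted p = 0.0261), and was not called with the mouse as a block (edgeR adjusted p = 0.0805), with no filter (edgeR adjusted p = 0.0649) or when any library but cisplatin library 2 was left out. Its fitted log2 value of -4.27 was -6.74 without that library, which holds its only cisplatin count. Without vehicle library 3 the list had 2 calls.

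The median log2 fold change over all tested genes was -0.02, with each gene read by its most abundant probe. It was 0.23 over the 10 members, -0.07 over NRF2 control, 0.43 over the thioredoxin and peroxiredoxin list, 0.11 over glutathione, 0.06 over superoxide, haem and iron, 0.09 over other NRF2 targets and 0.15 over selenoproteins. With library totals alone, 5 genes of these lists were called higher and 12 lower, against 11 and 5 with TMM factors.

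**Figure D4:**
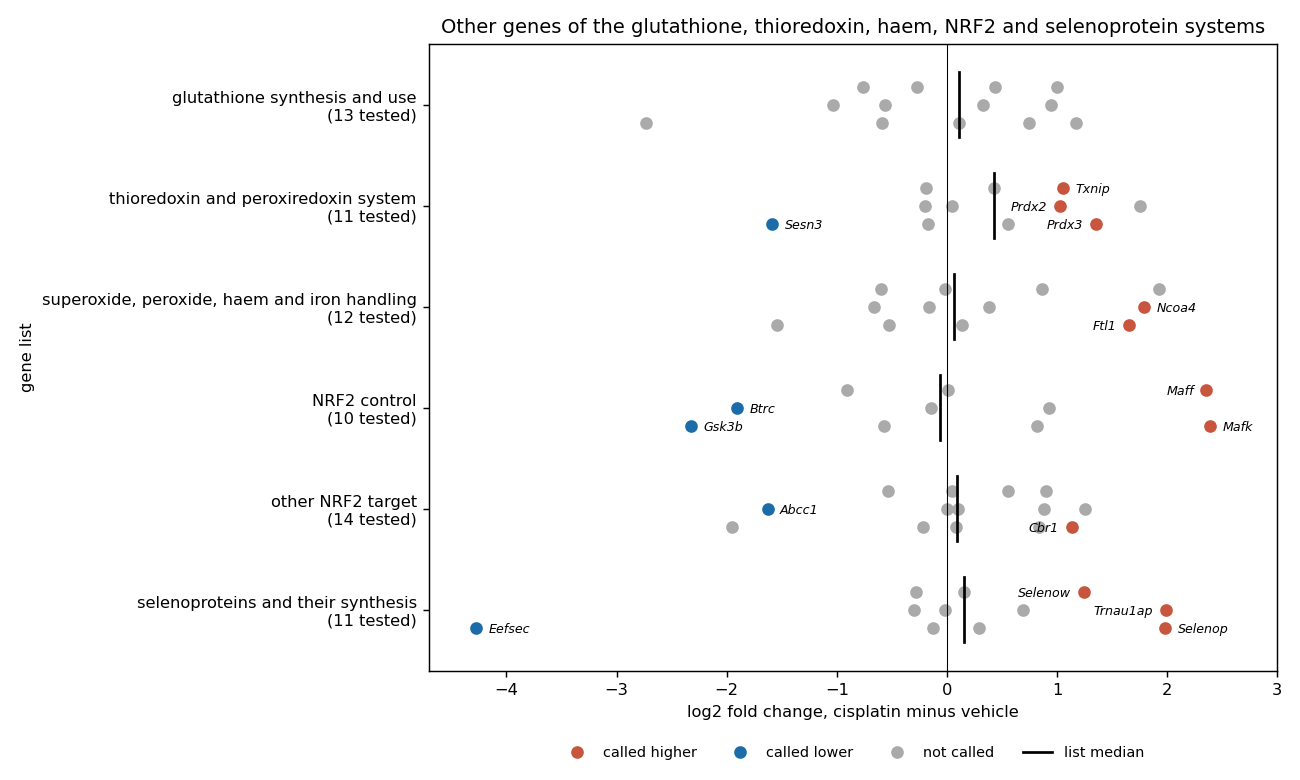
Log2 fold change (cisplatin minus vehicle) of every tested gene of the 6 further lists, by its most abundant probe. Red marks genes called higher, blue genes called lower, grey those not called, and black bars the list medians. Of 71 tested genes 11 were called higher and 5 lower, a smaller share than the 26.1% called over all tested genes, with Mafk at 2.39 and Eefsec at -4.27 at the ends.

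**Figure D5:**
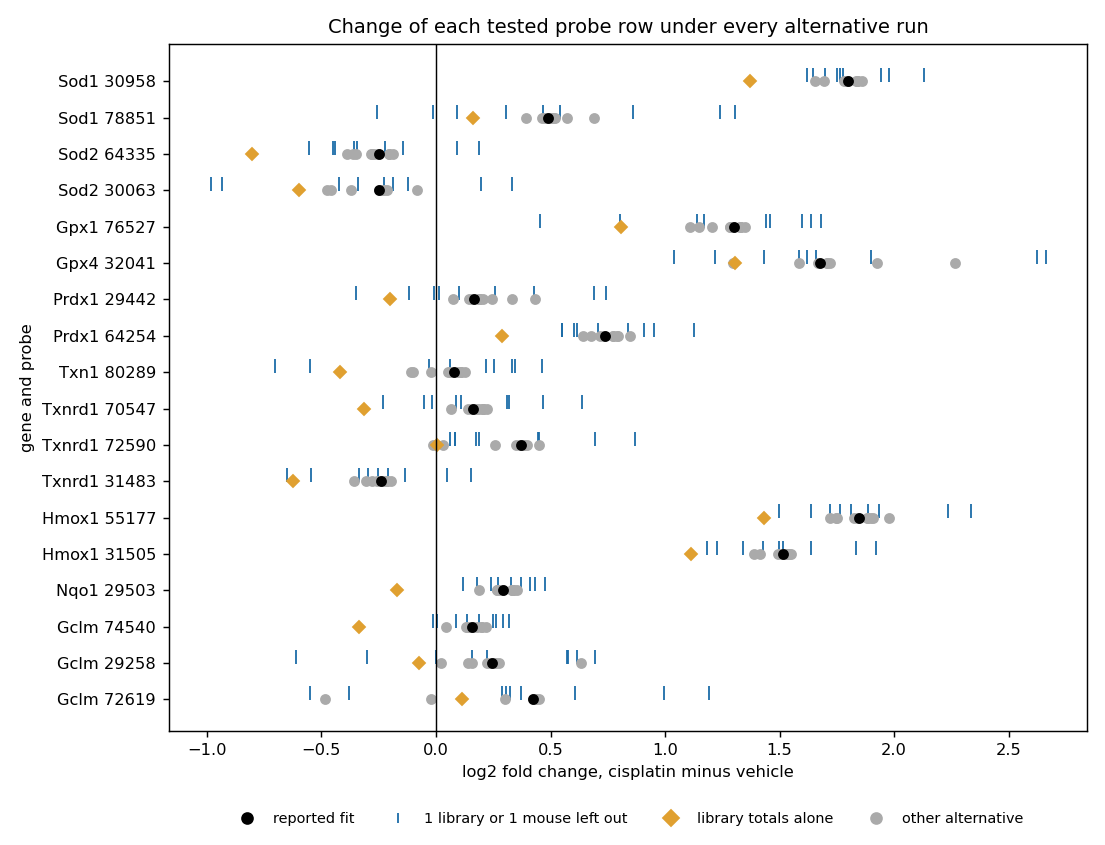
Log2 fold change (cisplatin minus vehicle) of each tested probe row in the reported fit (black), without 1 library or 1 mouse (blue ticks), with library totals alone as the scale (orange) and under the other alternatives (grey). Sod1 probe 30958 stayed at 1.37 to 2.13 and Hmox1 probe 55177 at 1.43 to 2.34, while the Txn1, Txnrd1 and Gclm probes lie on both sides of 0.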

How the data were processed

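The authors deposited counts, as whole numbers per probe and library, of a TempO-Seq mouse whole transcriptome panel. Of tools, the submitters' processing notes list STAR 2.7.10b, fastp 0.23.2 and DESeq2 1.44.0, with no role. Not given in the sources used here are the alignment reference, the counting rule and the probe positions, so reads shared between near-identical gene copies cannot be told.

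Counts were analysed with edgeR 4.0.16 in R 4.3.3: expression filter with a minimum count of 10, TMM factors, robust quasi-likelihood F-test with treatment as the only term, and Benjamini-Hochberg adjustment over 9381 rows. DESeq2 1.42.0 and limma 3.58.1 were alternatives. Each SE is the log2 fold change divided by the root of F, and 95% intervals are not adjusted. Ratios used counts plus 0.5 and exact two-sided permutation tests. The n of 3 in a group is 3 mice with 1 library each. The code was tested on simulated data.

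The members and lists were chosen with earlier results of these data known. All 10 genes were named, with up to 4 called genes per list at 10 CPM or more by size of change, or the 2 most abundant where none was called, and Nfe2l2, Keap1, Bach1, Gclc, Slc7a11, Srxn1, Txnip and Cat. Cisplatin and vehicle libraries of the same number share an animal identifier in the labels, which pairs them. Across rows, the correlation of a pair's deviations from its group means was -0.116, 0.0336 and 0.219. No 2 libraries agreed within sampling noise.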

Additional observations from a re-analysis of the deposited data

How the results depend on the processing

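Sod1 probe 30958 kept its call under all 20 alternatives (1.37 to 2.13 on the log2 scale) and Hmox1 probe 55177 under 19 of 20, the exception being mouse 3 left out. Library totals alone split all rows into 459 higher and 2023 lower, against 1040 and 1304, and moved their median to -0.54. The shallow probes set the depth limit, since 5 member probes and both Nfe2l2 probes had too few counts to be tested.

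Leaving out 1 library at a time, member rows called higher numbered 2 to 4 and rows called lower 0, and all rows called ranged from 1085 (vehicle library 1) to 2538, with 1321 for vehicle library 3. The calls per list ranged from 0 to 2 for glutathione, 1 to 5 for thioredoxin, 1 to 3 for superoxide and iron, 2 to 5 for NRF2 control, 0 to 2 for other NRF2 targets and 2 to 4 for selenoproteins. Without mouse 1, mouse 2 and mouse 3 in both groups all rows called numbered 1350, 1511 and 1021. Without mouse 1 the calls were 1 for thioredoxin, 1 for superoxide and iron, 0 for other NRF2 targets and 2 for selenoproteins. Without mouse 2 they were 2 for NRF2 control and 0 for other NRF2 targets. Without mouse 3 they were 1 for member rows, 0 for thioredoxin, 1 for other NRF2 targets and 2 for selenoproteins.

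Glutathione calls were 3 with library totals alone, 2 with limma-voom, and 1 with DESeq2, with a mean CPM of 10 or more, with probes summed per gene and with the mouse as replicate block. Thioredoxin calls were 1 with library totals alone and 6 with no filter, 3 higher and 3 lower. Other NRF2 target calls were 4 with DESeq2, with thinned counts and without mitochondrially encoded rows, and 1 with no filter and with the mouse block. The mouse block also changed the calls of Gpx1, Cbr1 and Eefsec. It changed no other call among the tested members and the tested genes named from the further lists. Cell type markers and the rows picked for likeness were not compared in this way. The block gave 3 member rows higher, 0 lower and 2197 rows called in all. For the ratios a sign-flip test over the mice as block cannot go below 0.25.

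With 1 library left out the log2 differences in ratio ran from 1.48 to 2.47 (Sod1 to Sod2), 1.21 to 1.71 (Hmox1 to Nqo1), -0.84 to -0.014 (Gpx1 to Gpx4) and -0.807 to 0.18 (Txn1 to Txnrd1), and without mouse 1 Gpx1 to Gpx4 was 0.15 and Txn1 to Txnrd1 0.055.

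Some uncalled log2 fold changes turned sign, and the cause was not tested. With library totals alone these were Prdx1 probe 29442 (-0.20), Txn1 (-0.42), Txnrd1 probe 70547 (-0.31), Nqo1 (-0.17), Gclm probes 74540 (-0.34) and 29258 (-0.076), Gsr (-0.12), Keap1 (-0.40) and Cat (-0.094). Txn1 was -0.023 with no filter, -0.10 with limma-voom and -0.11 with the mouse block, Txnrd1 probe 72590 was -0.014 with limma-voom, and Gclm probe 72619 was -0.49 with limma-voom and -0.02 with the block. Keap1 was -0.10 with no filter, -0.01 at a mean CPM of 10, -0.19 with probes summed, -0.045 thinned and -0.035 with the block. With 1 library left out the ranges were -0.012 to 1.24 (Sod1 78851), -0.55 to 0.19 (Sod2 64335), -0.934 to 0.20 (Sod2 30063), -0.12 to 0.74 (Prdx1 29442), -0.70 to 0.46 (Txn1), -0.054 to 0.469 (Txnrd1 70547), -0.55 to 0.047 (Txnrd1 31483), 0.003 to 0.32 (Gclm 74540), -0.303 to 0.69 (Gclm 29258), -0.38 to 0.996 (Gclm 72619), -0.83 to 0.053 (Gstp1) and -0.28 to 0.259 (Keap1). Without mouse 1 Sod1 78851 was -0.26, Sod2 64335 0.091, Prdx1 29442 -0.35, Gclm 29258 -0.61, Gclm 72619 -0.55 and Keap1 -0.23. Without mouse 2 Txn1 was -0.55. Without mouse 3 Sod2 30063 was 0.33, Txnrd1 70547 -0.23, Txnrd1 31483 0.15, Gclm 74540 -0.015 and Keap1 -0.139.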
